A study of Mus musculus with 2 samples.

Results

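Cell barcodes that carried abundant insulin and abundant glucagon transcripts were examined in mouse pancreatic islets. They were chosen by their measured hormone shares: a barcode was taken when Ins1 and Ins2 together held at least 25% of its unique molecular identifiers (UMIs, each marking 1 captured RNA molecule), Gcg held at least 1.5% and Sst held less than 1.5%. Only barcodes with at least 500 genes, at least 10000 UMIs and at most 20% of UMIs from mitochondrial genes were kept. The rule took 336 of 8727 kept barcodes, 256 of 4673 in the BcBKO library and 80 of 4054 in the flox/flox library. In all, 20213 barcodes were deposited, 10775 for BcBKO and 9438 for flox/flox, while the labels state that about 10000 cells were captured of about 16000 loaded in each channel.

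Beta cells make insulin and alpha cells make glucagon, the hormone that raises blood glucose. Alpha cells are set apart by transcription factors such as Irx1 and Irx2, and beta cells by Nkx6-1 and Pdx1. A droplet that captures a beta cell together with an alpha cell, and a single cell that holds both programmes, would each give a barcode with both hormones.

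The study addressed BAF60C, which is part of the BAF complexes that remodel chromatin, in type 2 diabetes. Its 2 libraries are islets of BcBKO mice, labelled as a beta-cell-specific ablation made with Pdx1-cre, and islets of flox/flox mice, for which the labels name no Cre. Islets of at least 3 mice were pooled into each library, cells were freed with a trypsin substitute, and RNA was captured in droplets with 10x Genomics 3′ chemistry. The deleted exons, the age and sex of the mice and any treatment are not given in the sources used here, and the Pdx1 promoter can also act in pancreatic progenitors, which give rise to every islet endocrine cell type.

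Each group is 1 library, so no difference between groups has a replicate or a test. The intervals are 95% intervals for counting error alone and do not cover mice or preparations. The BcBKO library held 178647270 UMIs and the flox/flox library 167670996, of which 12212607 and 4653838 lay in barcodes with both hormones. Smarcd3, which encodes BAF60C, was not lower in the library labelled BcBKO: barcodes with both hormones held 18 UMIs there (1.47 CPM, interval 0.874 to 2.33) and 3 UMIs in flox/flox (0.645 CPM, 0.133 to 1.88), where CPM is counts per 1000000 UMIs. Beta barcodes held 77 Smarcd3 UMIs in BcBKO (0.610 CPM) and 45 in flox/flox (0.359 CPM). Reads at the 3′ end need not lie in the deleted part, so the labels were not checked by this gene. The libraries shared 23 barcode sequences among the deposited barcodes and 5 among the kept ones, and 0 among barcodes with both hormones, while 1 flox/flox barcode with both hormones had its sequence among the deposited BcBKO barcodes.

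For comparison, beta barcodes were those with at least 25% insulin and less than 1% Gcg (3283 in BcBKO and 2858 in flox/flox), and alpha barcodes those with at least 10% Gcg and less than 15% insulin (471 and 314). Neither kind was limited in Sst or Ppy, and 155 BcBKO and 74 flox/flox beta barcodes held at least 1.5% Sst. The insulin and Gcg values in this paragraph chose the barcodes and are given as a description only. Ins1 (ENSMUSG00000035804; chromosome 19, 52264297 to 52265476, plus strand) and Ins2 (ENSMUSG00000000215; chromosome 7, 142678656 to 142743381, minus strand) together held 27.4% at the lowest, 50.6% at the median and 64.1% at the highest of UMIs in the BcBKO barcodes with both hormones, against 27.0%, 47.1% and 64.2% in the flox/flox ones. Gcg (ENSMUSG00000000394; chromosome 2, 62474530 to 62483650, minus strand) held 1.54%, 4.60% and 18.6% in BcBKO and 2.02%, 6.65% and 18.8% in flox/flox. Insulin exceeded glucagon in every one of these barcodes. Positions are those of GENCODE M21 on GRCm38, the assembly of the mm10 build.

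Barcodes near the thresholds were few on the glucagon side in flox/flox and many in BcBKO. The 3 insulin-rich barcodes just inside the Gcg limit had 1.54%, 1.58% and 1.58% Gcg in BcBKO and 2.02%, 2.06% and 2.21% in flox/flox. Just outside it stood 1.5% (rounded from below), 1.49% and 1.43% in BcBKO and 1.35%, 1.17% and 1.03% in flox/flox. On the insulin side the 3 values just inside were 27.4%, 27.9% and 28.8% in BcBKO and 27.0%, 27.0% and 29.0% in flox/flox, against 24.4%, 21.9% and 20.4% in BcBKO and 23.6%, 20.7% and 20% in flox/flox just outside. Between 0.1% and 1.5% Gcg lay 225 insulin-rich barcodes in BcBKO (6.25% of 3601) and 34 in flox/flox (1.15% of 2952). A further 31 BcBKO and 8 flox/flox barcodes passed the insulin and Gcg limits and were left out for Sst.

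**Figure D1:**
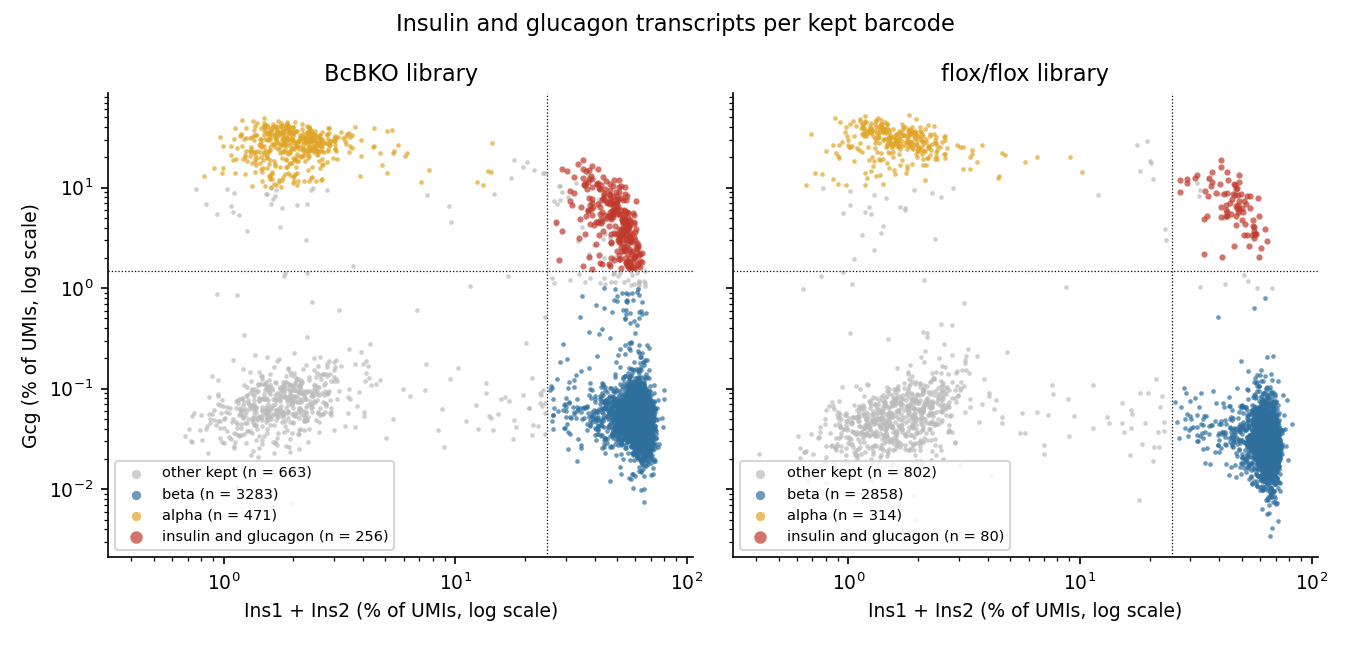
Gcg against Ins1 plus Ins2, both as percent of UMIs on log scales, for each kept barcode of the BcBKO library (left) and the flox/flox library (right). Dotted lines mark 25% insulin and 1.5% Gcg. Red points are the 256 BcBKO and 80 flox/flox barcodes with both hormones, which lie between the beta barcodes (blue) and the alpha barcodes (yellow), and grey points are other kept barcodes.

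The Gcg levels of endothelial barcodes are given beside those of the chosen ones; the rule fixed the Gcg share of barcodes with both hormones and of beta barcodes, so this too is a description. Barcodes with both hormones held a median of 2114 Gcg UMIs in BcBKO and 3644 in flox/flox, at median depths of 43925 and 55004.5 UMIs. Endothelial cells line blood vessels and lack glucagon, and barcodes with at least 1% of UMIs from their markers, under 15% insulin and under 10% Gcg held a median of 7 Gcg UMIs in BcBKO (0.125% of UMIs, median depth 5187.5) and 6 in flox/flox (0.0895%, median depth 5499.5). At least 1.5% Gcg was found in 4 of 1424 endothelial barcodes in BcBKO (0.281%) and in 0 of 1684 in flox/flox. Beta barcodes held a median of 17 Gcg UMIs in BcBKO and 12 in flox/flox, or 0.0491% and 0.0293% of UMIs.

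Barcodes with both hormones made up 5.48% of kept barcodes in BcBKO (exact binomial interval 4.84 to 6.17) and 1.97% in flox/flox (1.57 to 2.45), a difference of 3.51 percentage points (2.73 to 4.29) and a ratio of 2.78 (2.15 to 3.62). Among barcodes with at least 25% insulin the shares were 7.11% in BcBKO and 2.71% in flox/flox. Alpha barcodes were also more frequent in BcBKO, at 10.1% of kept barcodes against 7.75% in flox/flox, while beta barcodes held 70.3% and 70.5%. Set against the alpha barcodes, there were 54.4 barcodes with both hormones per 100 alpha barcodes in BcBKO and 25.5 in flox/flox. The size of the difference depended on the glucagon limit: at 3% Gcg it was 2.18 points (3.98% in BcBKO and 1.80% in flox/flox), and at 5% Gcg 1.03 points (2.44% and 1.41%).

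The difference in number was largest at low glucagon. Barcodes with 1.5% to 3% Gcg numbered 70 in BcBKO (27.3% of those with both hormones) and 7 in flox/flox (8.75%), while those with at least 10% Gcg numbered 32 (12.5%) and 18 (22.5%). At 3% to 5% there were 72 in BcBKO and 16 in flox/flox, and at 5% to 10% there were 82 and 39. Gcg was also higher in BcBKO in beta and in endothelial barcodes, as given above, and the part of free RNA in the low-glucagon barcodes was not tested.

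Barcodes with both hormones were deeper at the median than beta or alpha barcodes, and their median was near the sum of the medians of the other 2. The median was 43925 UMIs in BcBKO, against 33726 in beta and 14632 in alpha barcodes, whose medians add up to 48358. In flox/flox it was 55004.5, against 38671.5 and 16217, which add up to 54888.5. The quartiles were 31266.5 and 61207 UMIs in BcBKO and 43313.5 and 69796.5 in flox/flox. The deepest such barcode held 232180 UMIs in BcBKO and 109264 in flox/flox, and the shallowest held 12333 and 12591. More than the beta median was held by 181 of 256 barcodes in BcBKO (70.7%) and by 68 of 80 in flox/flox (85.0%), so the distributions overlapped widely. All 3 kinds passed the same minimum of 10000 UMIs, which removed more of the shallower alpha barcodes: at a minimum of 1000 UMIs there were 714 alpha barcodes in BcBKO and 415 in flox/flox.

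**Figure D2:**
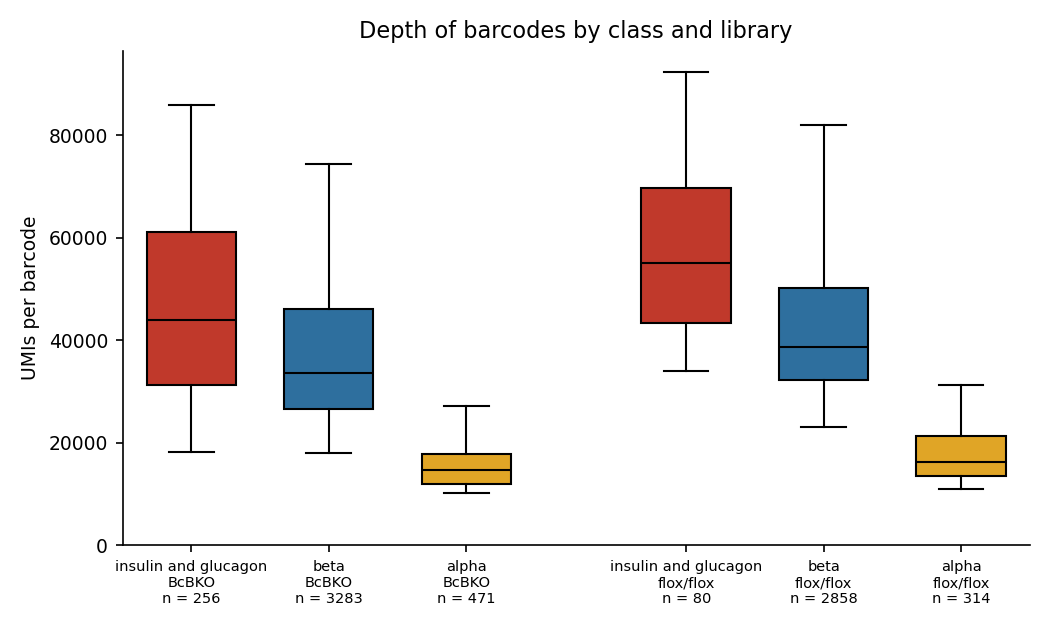
UMIs per barcode in barcodes with insulin and glucagon, beta barcodes and alpha barcodes of the BcBKO library (left 3 boxes) and the flox/flox library (right 3 boxes). Boxes give the quartiles with the median line and whiskers the 5th and 95th percentiles. The medians of barcodes with both hormones, 43925 and 55004.5 UMIs, lie above those of beta and alpha barcodes in both libraries.

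Gene content at equal depth was intermediate. After each barcode was thinned at random to 10000 UMIs, which left out none, barcodes with both hormones held a median of 1909.5 genes in BcBKO, against 1729 in beta and 2450 in alpha barcodes. In flox/flox the medians were 1942.5 genes, against 1672.5 and 2402. Unthinned, the medians were 4794, 3790 and 3022 genes in BcBKO and 5341.5, 3997 and 3226 in flox/flox. The mitochondrial share, a sign of RNA quality, was 2.46% at the median in BcBKO barcodes with both hormones and 2.23% in flox/flox ones, close to the 2.59% and 2.25% of beta barcodes.

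To ask how far the other genes followed the hormones, the summed counts were fitted as a mixture of the beta and the alpha profile of the same library, on 10711 genes in BcBKO and 10477 in flox/flox that were neither islet hormones nor mitochondrial. The best alpha share was 19.6% of UMIs in BcBKO (19.5 to 19.7) and 24.3% in flox/flox (24.1 to 24.5). Gcg and the insulin genes were left out of the fit but chose the barcodes and both profiles, so shares taken from them are a description only. From Gcg alone the share would be 19.7% in BcBKO and 24.2% in flox/flox, and from the insulin genes 18.7% and 26.5%. The share from glucagon and that from the genes outside the rule differed by less than 1 percentage point in both libraries. The share from insulin was further off in flox/flox, at 26.5% against 24.3%.

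Fitted 1 barcode at a time, most of these barcodes had an alpha part above that of nearly all beta barcodes. The alpha share was 1.81% at the lowest, 18.2% at the median and 86.9% at the highest in BcBKO, against 4.36%, 23.0% and 84.0% in flox/flox. Beta barcodes had medians of 0.0746% in BcBKO and 0.0899% in flox/flox, with 95th percentiles of 9.16% and 5.68%. These limits were exceeded by 209 of 256 barcodes with both hormones in BcBKO (81.6%) and by 79 of 80 in flox/flox (98.8%). Alpha barcodes had medians of 99.6% and 99.7%. Across barcodes the alpha share followed the Gcg share, with Pearson's r 0.733 and Spearman's rho 0.789 over 256 barcodes in BcBKO and 0.656 and 0.783 over 80 in flox/flox; barcodes of 1 library share its free RNA and their own depth, so these are descriptions.

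**Figure D3:**
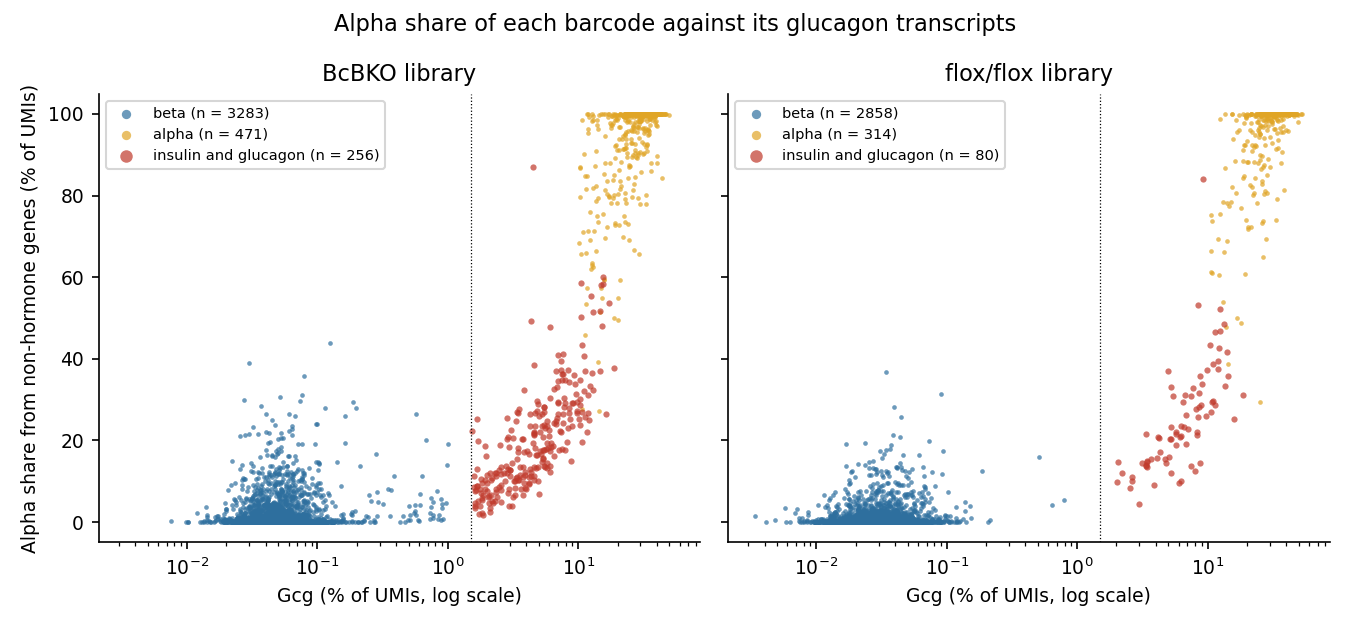
Alpha share of UMIs fitted from genes other than hormones and mitochondrial genes (vertical axis, percent) against Gcg as percent of UMIs (horizontal axis, log scale), 1 point per barcode, BcBKO left and flox/flox right. The dotted line marks 1.5% Gcg. Barcodes with both hormones (red) climb with their glucagon share between beta barcodes (blue) near 0 and alpha barcodes (yellow) near 100%.

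Split by glucagon, the alpha share climbed in step in both libraries. At 1.5% to 3% Gcg the median alpha share was 8.59% in BcBKO and 10.1% in flox/flox. It was 13.5% in BcBKO and 15.2% in flox/flox at 3% to 5%, 24.6% and 23.4% at 5% to 10%, and 35.8% and 38.0% from 10%. Just below the rule, the 31 BcBKO and 6 flox/flox barcodes with 1% to 1.5% Gcg had medians of 7.70% and 5.71%, and the 41 and 3 with 0.3% to 1% had 3.43% and 5.30%. The Gcg level the fit gave was above the measured one at low glucagon, 2.66% against 2.17% measured in BcBKO and 3.07% against 2.43% in flox/flox at 1.5% to 3%. It was below it from 10%, 10.2% against 12.5% in BcBKO and 11.1% against 12.8% in flox/flox, and these bins were themselves cut by the measured level.

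In absolute terms the alpha part of a barcode was smaller in BcBKO. The UMIs assigned to the alpha profile had a median of 7897 in BcBKO barcodes with both hormones, against 13510 in alpha barcodes of that library. In flox/flox the medians were 12870 and 15910. Alpha barcodes had to hold at least 10000 UMIs, a minimum that the alpha part of a barcode did not have. At a minimum of 1000 UMIs the median total of alpha barcodes was 11893.5 in BcBKO and 14582 in flox/flox. The UMIs assigned to the beta profile had medians of 33800 in BcBKO and 39740 in flox/flox, against 32580 and 37790 in beta barcodes. An alpha part under 5000 UMIs was found in 72 of 256 BcBKO barcodes with both hormones (28.1%), 46 of which had under 3% Gcg, and in 3 of 80 flox/flox ones (3.75%). Among alpha barcodes of at least 1000 UMIs, 57 of 714 in BcBKO (7.98%) and 42 of 415 in flox/flox (10.1%) had so few, counted as total and not as fitted UMIs.

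The defining transcription factors of both cell types occurred in the same barcodes. Irx2 (ENSMUSG00000001504; chromosome 13, 72628820 to 72634198, plus strand), a homeobox factor of alpha cells, had UMIs in 56.6% of BcBKO and 72.5% of flox/flox barcodes with both hormones. At 10000 UMIs it was found in 20.3% in BcBKO (15.6 to 25.8) and 23.8% in flox/flox (14.95 to 34.6). Beta barcodes, which carry it little, had 0.822% and 0.525% at the same depth, and alpha barcodes 66.5% and 63.7%. Nkx6-1 (ENSMUSG00000035187; chromosome 5, 101658139 to 101664996, minus strand), which maintains beta-cell identity, was found at 10000 UMIs in 67.6% of BcBKO and 66.3% of flox/flox barcodes with both hormones. It was in 72.9% and 71.1% of beta and in 19.8% and 19.1% of alpha barcodes, which carry it little.

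Irx2 and Nkx6-1 were both found at that depth in 33 of 256 BcBKO barcodes (12.9%, 9.04 to 17.6) and 13 of 80 flox/flox barcodes (16.25%, 8.95 to 26.2) with both hormones. The share was 0.548% of beta and 12.95% of alpha barcodes in BcBKO, and 0.315% and 11.5% in flox/flox. The share in barcodes with both hormones was thus within counting error of that in alpha barcodes. Without thinning the pair was found in 53.9% of BcBKO and 70% of flox/flox barcodes with both hormones, against 22.7% and 23.25% of alpha barcodes, at the greater depth given above.

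Gene by gene, the summed barcodes with both hormones lay close to the mixture. Of 1197 genes outside the rule with at least 50 CPM in the mean of these barcodes and the mixture, 98.0% were within 0.25 of it on the log2 scale in BcBKO and 97.1% in flox/flox, with medians of −0.01 and 0.06. Log2 ratios use a pseudocount of 1 CPM. Against beta barcodes 68.2% were within 0.25 in BcBKO and 44.4% in flox/flox, and against alpha barcodes 20.3% and 24.5%. Beyond 1.5-fold of the mixture were 5 genes in each library (0.418%), 1 higher and 4 lower in BcBKO (0.0835% and 0.334%) and 3 higher and 2 lower in flox/flox (0.251% and 0.167%), against 5.76% and 16% of genes in the comparison with beta and 48.7% and 40.3% in that with alpha barcodes. In both libraries and in 1 direction, 0 genes (0%) were higher and 1 (0.0835%) was lower. A mixture has 1 fitted weight and a beta or an alpha profile has none, which by itself can bring the mixture closer.

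**Figure D4:**
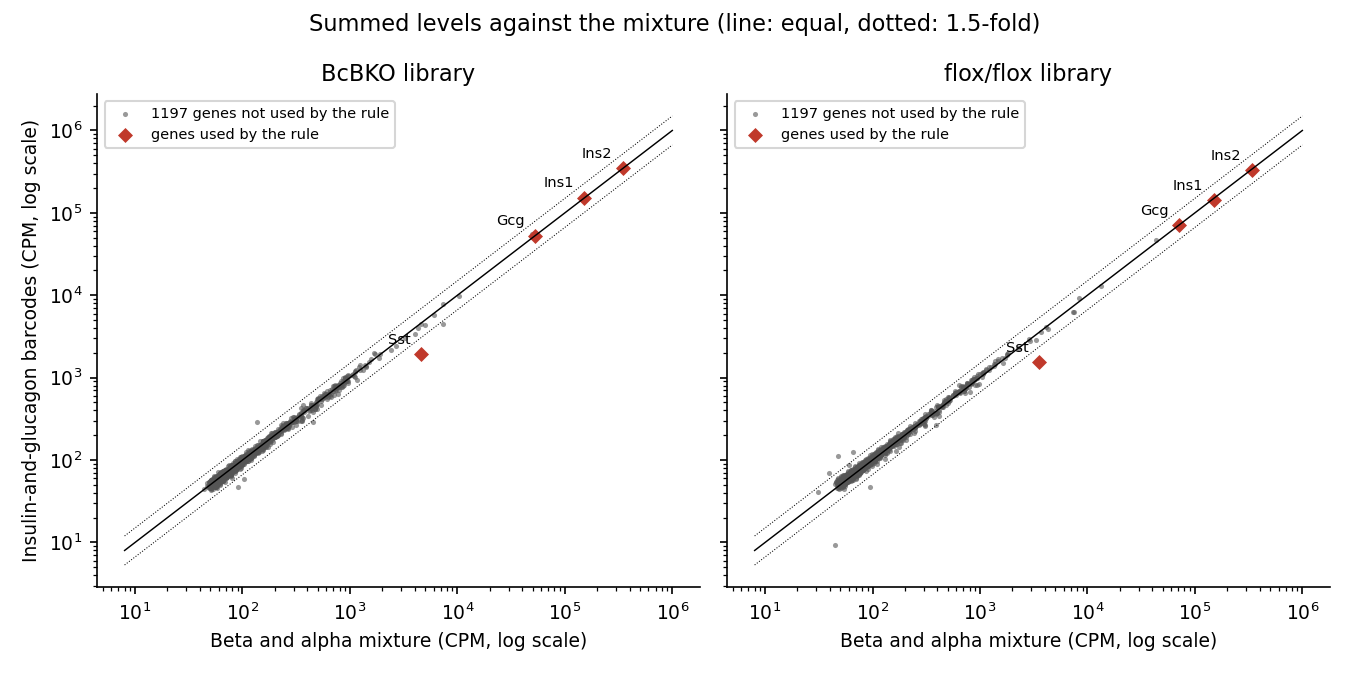
Summed level in barcodes with insulin and glucagon (vertical axis, CPM, log scale) against the fitted mixture of beta and alpha profiles (horizontal axis, CPM, log scale), 1 point per gene, BcBKO left and flox/flox right. The solid line marks equal levels and the dotted lines 1.5-fold. Of the 1197 genes, 5 per library lie outside the dotted lines, and red diamonds are the genes the rule used, of which Sst was limited by it.

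The alpha-cell genes stood at intermediate levels. Of 15 alpha identity genes, 15 in BcBKO and 14 in flox/flox lay between the beta and the alpha level, with Sphkap the exception. The share of all tested genes lying between the 2 levels was not counted, so this number is a description only. Of the 8 with at least 50 CPM, 0 were beyond 1.5-fold of the mixture in either library, and their median log2 ratios were 0.02 and −0.02. Irx2 had 22.8 CPM in BcBKO against 22.7 in the mixture, 0.682 in beta and 112.9 in alpha barcodes; in flox/flox it had 32.0 against 26.6, 0.637 and 107.3. Ttr, which encodes transthyretin, had 5743 CPM in BcBKO against 6033 in the mixture and 6294 in flox/flox against 7273.

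Genes nearer to the edge of this list were of low level. Irx1 had 20.7 CPM in BcBKO and 24.5 in flox/flox, at log2 ratios of 0.22 (0.02 to 0.42) and 0.31 (0.03 to 0.60) over the mixture, and Irx2 stood at 0.01 (−0.18 to 0.19) and 0.26 (0.01 to 0.51). Slc38a5, an amino acid transporter of alpha cells, had 22.9 CPM in BcBKO at 0.27 (0.08 to 0.46) and 11.0 CPM in flox/flox at −0.61 (−0.99 to −0.22), with 25.5% of its flox/flox UMIs in 1 barcode. Etv1 and Slc7a2, a transcription factor and a transporter of cationic amino acids, had 97.4 and 97.6 CPM in BcBKO and 99.5 and 103.6 CPM in flox/flox, each within 0.16 log2 of the mixture. Pyy, which encodes peptide YY, had 9806 CPM in BcBKO against 10360 in the mixture and 12920 in flox/flox against 13500.

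The beta-cell genes were likewise diluted. Of 20 beta identity genes, 18 in each library lay between the alpha and the beta level, again without a count over all tested genes to set beside it. Of the 13 with at least 50 CPM, 0 were beyond 1.5-fold, and their median log2 ratios were −0.07 in BcBKO and −0.13 in flox/flox. Nkx6-1 had 107.8 CPM in BcBKO against 115.5 in the mixture, 136.9 in beta and 27.2 in alpha barcodes, and in flox/flox 97.8 against 110.2, 138.0 and 23.8. Pdx1, which activates the insulin genes, had 46.4 CPM in BcBKO against 54.0 in the mixture and 32.7 in flox/flox against 38.0. Ucn3, a peptide of mature beta cells, had 205.8 CPM in BcBKO against 201.4 in the mixture and 176.6 in flox/flox against 183.9. Slc2a2, the glucose transporter GLUT2, had 139.2 against 146.6 and 161.6 against 182.6 CPM.

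Iapp, which encodes the amyloid peptide released with insulin, was above the mixture in both libraries, at 56040 CPM in BcBKO against 49150 (log2 ratio 0.19, 0.19 to 0.19) and 47270 in flox/flox against 43340 (0.13, 0.12 to 0.13). These values remained between the beta and the alpha level. Of the beta genes with at least 50 CPM, 4 in BcBKO and 2 in flox/flox were above the mixture, against 45.0% and 72.4% of all genes tested.

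The machinery of hormone processing stood close to the mixture. Of its 6 genes, 5 in BcBKO and 6 in flox/flox were above it, against 45.0% and 72.4% of all genes tested. Their median log2 ratios were 0.06 in BcBKO and 0.11 in flox/flox, against −0.01 and 0.06 over all genes, and 0 were beyond 1.5-fold. Pcsk2, the convertase that releases glucagon, had 1963 CPM in BcBKO against 1908 in the mixture and 1929 in flox/flox against 1775. Pcsk1, the convertase of beta cells, had 83.0 against 89.0 and 73.7 against 68.0 CPM. Pcsk1n, an inhibitor of Pcsk1, had 1999 against 1661 in BcBKO (log2 ratio 0.27, 0.25 to 0.29) and 1974 against 1835 in flox/flox (0.10, 0.07 to 0.14). The 11 shared endocrine genes with at least 50 CPM had medians of −0.07 in BcBKO and 0.05 in flox/flox, 0 beyond 1.5-fold; the secretory granule gene Chgb was the lowest in BcBKO at −0.21.

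Genes of proliferation were low, while those of progenitors summed to near the mixture. The progenitor and dedifferentiation genes held 272.5 CPM in BcBKO against 290.1 in the mixture, 201.5 in beta and 653.9 in alpha barcodes. In flox/flox they held 301.5 CPM against 281.2, 167.7 and 634.0. Of 9 progenitor and dedifferentiation genes, 2 reached 50 CPM, with median log2 ratios of −0.15 in BcBKO and 0.12 in flox/flox. Neurog3, the inducer of endocrine fate, had 2.62 CPM in BcBKO against 3.38 in the mixture and 1.07 in flox/flox against 2.13. Aldh1a3, an enzyme raised in dedifferentiated beta cells, had 14.8 against 14.9 and 14.2 against 10.5 CPM. Its log2 ratios were −0.01 (−0.21 to 0.20) in BcBKO and 0.40 (0.07 to 0.73) in flox/flox. The 7 proliferation genes found in the files summed to 3.44 CPM in BcBKO against 10.3 in the mixture and to 4.73 in flox/flox against 12.4, on 42 and 22 UMIs, with Mki67, Top2a and Birc5 at 0 UMIs in BcBKO and Top2a at 0 in flox/flox.

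Few genes departed from the mixture, and those beyond 1.5-fold in at least 1 library were Apoe, Malat1, Gm42418, Spp1, Hbb-bs, Clu and Dbi. Apoe, which encodes an apolipoprotein, had 58.2 CPM in BcBKO against 104.4 in the mixture (log2 ratio −0.83, −0.94 to −0.72) and 47.1 in flox/flox against 94.3 (−0.99, −1.18 to −0.80). A single barcode held 33.9% of these Apoe UMIs in BcBKO and 57.5% in flox/flox. The mean of the log2 ratios of the 2 libraries, −0.91, was 0.36 without barcodes that Scrublet, a doublet caller, had marked. Marked barcodes were then left out of the beta and alpha profiles as well as of the barcodes with both hormones. With both profiles unchanged, the mean was −1.80 without barcodes holding markers of other cell types and −1.89 at 5% Gcg. Malat1, a nuclear RNA, had 4488 CPM in BcBKO against 7390 (−0.72) and 6286 in flox/flox against 7447 (−0.24), and another nuclear RNA, Kcnq1ot1, had −0.27 and −0.26. The gene model Gm42418 had −0.63 in BcBKO and −0.53 in flox/flox.

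The other departures went opposite ways in the 2 libraries, with 1 barcode holding much of the signal. Hbb-bs, a red cell globin, stood at 1.06 in BcBKO and −2.15 in flox/flox, with 50.6% of its BcBKO UMIs in 1 barcode. Spp1 and Clu, secreted proteins abundant in duct cells, stood at −0.96 and −0.39 in BcBKO and at 0.91 and 1.24 in flox/flox, where 1 barcode held 67.4% and 58.4% of their UMIs. Dbi stood at −0.31 in BcBKO and 0.80 in flox/flox, with 38.6% of its flox/flox UMIs in 1 barcode.

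Genes highest over the mixture in both libraries were below 1.5-fold on average. Klf4, a transcription factor induced by stress, had 72.5 CPM in BcBKO against 63.2 in the mixture and 87.2 in flox/flox against 61.0, log2 ratios of 0.20 (0.09 to 0.30) and 0.51 (0.36 to 0.66). Jund and Ier2, the latter a gene that responds early to stimuli, stood at 0.16 and 0.20 in BcBKO and 0.34 and 0.27 in flox/flox. Pdyn, the precursor of dynorphin, stood at 0.10 in BcBKO and 0.39 in flox/flox, where 1 barcode held 18.4% of its UMIs. Tonsl, Tbca, Mrpl30, the co-chaperones Dnaja4 and Dnajc19, C1qtnf4, Pfn1 and Erh were each between 0.10 and 0.33 in both. At 5% Gcg the mean over both libraries was 0.05 for Pdyn (0.24 at the 1.5% limit), 0.07 for Pfn1 (0.19) and 0.11 for Erh (0.19). On the other side Mt2 and Mt1, metallothioneins that bind zinc, stood at −0.32 and −0.09 in BcBKO and −0.34 and −0.29 in flox/flox. Atp2a2, the calcium pump of the endoplasmic reticulum, stood at −0.20 and −0.23, and Chchd10, Pde5a, Spc25, Arglu1, Zdhhc2 and Atp5b were between −0.28 and −0.10 in both.

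Markers of other cells were scarce. At least 0.1% of UMIs from endothelial genes was found in 6 of 256 BcBKO and 2 of 80 flox/flox barcodes with both hormones (2.34% and 2.50%), against 2.10% and 2.13% of beta barcodes. Mural, macrophage and acinar genes reached that level in 2, 1 and 1 BcBKO barcodes and 0 flox/flox barcodes, duct genes in 0 and 1, and lymphocyte genes in 0 and 0. Alpha barcodes, which set part of the mixture, reached it for duct genes in 7.64% in BcBKO and 10.2% in flox/flox. Among beta barcodes the shares for duct genes were 1.10% and 0.875%. Summed over the list, endothelial genes had 68.6 CPM in BcBKO against 104.1 in the mixture and 110.2 in flox/flox against 88.8, and macrophage genes 64.6 against 79.7 and 41.7 against 61.2. Mural genes had 17.5 CPM against 25.1 and 4.94 against 19.8, and lymphocyte genes 8.35 against 7.43 and 12.3 against 7.02. Duct genes had 251.7 CPM against 312.1 and 375.8 against 307.0. Acinar genes had 123.9 CPM in BcBKO against 34.8, where 1 barcode held 94.2% of the UMIs of the protease precursor Ctrb1, and 93.7 against 181.5 in flox/flox.

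Ppy, the pancreatic polypeptide gene that the rule did not limit, held at least 1.5% of UMIs in 22 BcBKO barcodes with both hormones (8.59%) and 10 flox/flox ones (12.5%). Its summed level was 7834 CPM in BcBKO against 7386 in the mixture and 9375 in flox/flox against 8292. Rbp4 had 319.6 CPM against 316.9 in BcBKO and 263.2 against 309.8 in flox/flox.

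Scrublet, which scores each barcode by its likeness to simulated pairs, gave these barcodes higher scores than beta or alpha barcodes but marked few of them. The median score was 0.228 in BcBKO, against 0.108 in beta and 0.0266 in alpha barcodes, and 0.259 in flox/flox, against 0.0995 and 0.0215. It marked 8 of 256 in BcBKO (3.12%) and 7 of 80 in flox/flox (8.75%), against 2.92% and 3.32% of beta and 4.67% and 2.87% of alpha barcodes. Over all barcodes with at least 1000 UMIs it marked 177 of 8504 (2.08%) in BcBKO and 170 of 7568 (2.25%) in flox/flox. No marked barcode was removed, except where a value is said to be without barcodes marked by Scrublet.

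Barcodes with transcripts of other pairs of cell types were counted as a yardstick, with limits set after the values had been seen. The number of pair barcodes was divided by the number of possible pairs, the product of the barcodes of each type. Insulin with glucagon gave 109 per 1000000 possible pairs in BcBKO (96.2 to 123) and 67.4 in flox/flox (53.5 to 83.9), a ratio of 1.62 (1.26 to 2.11). Insulin with somatostatin, the delta-cell hormone, gave 160 on 158 barcodes in BcBKO and 109 on 75 in flox/flox, a ratio of 1.47 (1.11 to 1.96). The possible pairs were those of 3283 beta and 714 alpha barcodes in BcBKO and of 2858 and 415 in flox/flox, with alpha barcodes counted from 1000 UMIs.

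Beta cells with cells outside the endocrine lineage were rarer per possible pair. Insulin with endothelial genes gave 15.8 per 1000000 on 75 barcodes in BcBKO and 12.8 on 63 in flox/flox, a ratio of 1.23 (0.867 to 1.75). Insulin with mural genes gave 14.2 on 23 barcodes and 11.7 on 20, a ratio of 1.22 (0.639 to 2.34), and insulin with macrophage genes 25.2 on 28 and 13.4 on 16, a ratio of 1.88 (0.982 to 3.72). Endothelial with macrophage genes, a pair without endocrine cells, gave 12.2 on 6 barcodes in BcBKO and 15.3 on 11 in flox/flox, a ratio of 0.797 (0.242 to 2.35). The interval of the ratio lay above 1 for insulin with glucagon and insulin with somatostatin, the pairs with the most barcodes. For the other 4 pairs it included 1, but it also included the ratios of those hormone pairs, 1.62 and 1.47. The largest ratio, 1.88, was that of insulin with macrophage genes, so no difference between pairs was shown. The lower limit that a second type had to reach differed between pairs, so rates compare better between libraries than between pairs. Cells left attached after dissociation, cells captured together by chance and single cells with both programmes cannot be told apart by these counts.

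**Figure D5:**
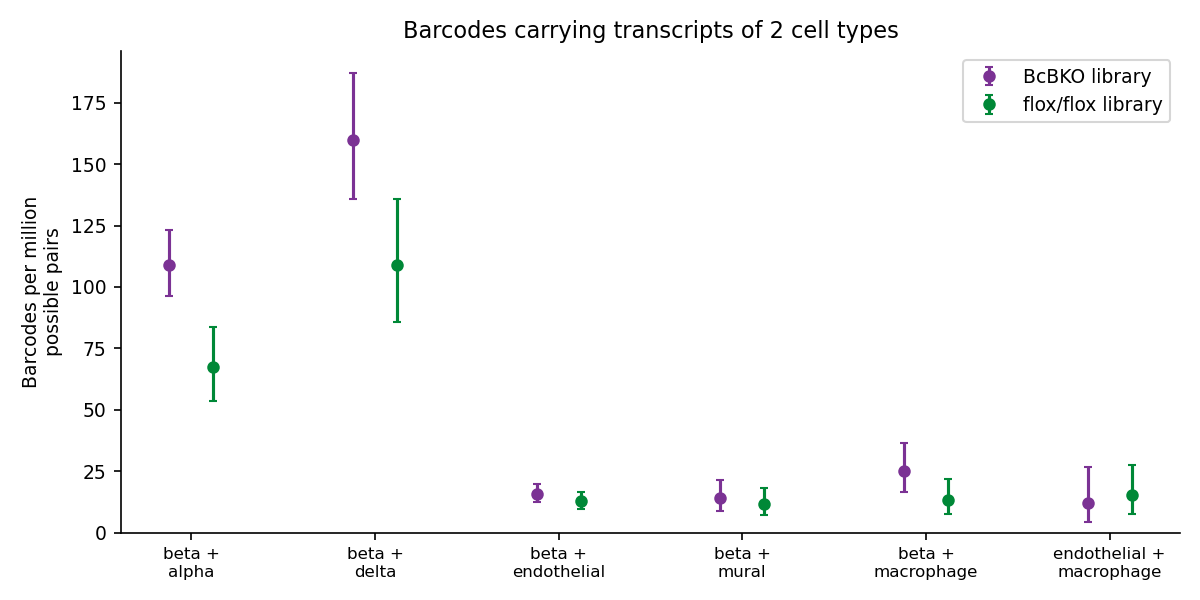
Barcodes carrying transcripts of 2 cell types per 1000000 possible pairs (vertical axis) for 6 pairs, BcBKO library left and flox/flox library right within each pair. Points are rates and bars 95% counting intervals. Insulin with glucagon (beta + alpha) stands at 109 and 67.4 and insulin with somatostatin (beta + delta) at 160 and 109, above the other 4 pairs.

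Between the libraries, the barcodes with both hormones differed in few genes. Of 1202 genes with at least 50 CPM, 4 were beyond 1.5-fold higher in BcBKO (0.333%) and 6 lower (0.499%), with a median log2 ratio of −0.04. With TMM scaling, which moved the median to 0.05, 6 were higher and 4 lower. The fitted mixtures alone would give 5 higher and 5 lower (0.416% each), beta barcodes gave 12 and 6 (0.998% and 0.499%) and alpha barcodes 11 and 2 (0.915% and 0.166%). The ratio in barcodes with both hormones was within 0.25 log2 of that of the mixtures for 92.6% of genes, a comparison in which the alpha shares of 19.6% and 24.3% were part of the mixtures. For 84.9% of genes the ratio was within 0.25 log2 of equal levels without any mixture. It was higher than that of the mixtures for 28.1% of genes, and 5 genes (0.416%) were beyond 1.5-fold from the mixtures.

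Several of the genes that differed did so in beta barcodes too. Pdyn had 80.2 CPM in BcBKO and 40.8 in flox/flox, a log2 ratio of 0.96 (0.74 to 1.18), with 1.20 in beta barcodes. Rgs2, which dampens signalling by G proteins, had 156.2 CPM in BcBKO and 276.5 in flox/flox (−0.82, −0.92 to −0.72), with −1.09 in beta and 0.01 in alpha barcodes. Gadd45b, a stress-response gene, had 55.8 and 89.0 CPM (−0.66, with −0.91 in beta barcodes), and Mt2 had 68.8 and 103.6 CPM (−0.58, with −0.74 in beta barcodes).

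Among the rest of the extremes, some had much of their signal in 1 barcode. Bambi, an inhibitor of TGF-beta signalling, stood at −0.83 (−0.98 to −0.69), against −0.43 in beta and −0.26 in alpha barcodes, and Prrc2c and Snrpf both stood at −0.57. Fkbp11, a folding enzyme of the endoplasmic reticulum, stood at 0.51, with 0.50 in beta barcodes, and Atp2a3, Fam151a, Fam46a and Dapl1 between 0.40 and 0.43. Hbb-bs (4.82), Ctrb1 (1.49), Spp1 (−1.42), Clu (−0.88) and Dbi (−0.58) each had over 38% of their UMIs in 1 barcode of 1 library. For Hbb-bs the log2 ratio was 0.84 in beta and 4.43 in alpha barcodes. Without the barcodes that held at least 0.1% of UMIs from other cell types (8 in BcBKO and 3 in flox/flox) 5 genes were beyond 1.5-fold, 2 higher and 3 lower, Hbb-bs stood at 0.13, and Ctrb1, Spp1, Clu and Dbi changed sign, to −2.37, 0.10, 0.25 and 0.04.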

How the data were processed

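The deposited matrices hold raw counts (UMIs of each gene in each barcode, not normalised) for 28692 genes in 2 libraries. Per the submitters' processing notes, Cell Ranger 3.1.0, Seurat 4.0.0 and mm10 were used, while the matrix header names version 6.1.2 of the counting software. The annotation is not given in the sources used here.

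The barcodes and gene lists were chosen with earlier results of these data known. Profiles were sums of UMIs divided by their total (CPM). The alpha share was the maximum-likelihood weight of the alpha profile, on genes with at least 200 UMIs, leaving out 8 hormone genes and mitochondrial genes. The fit was tried on simulated summed counts drawn from the same alpha and beta profiles. Single barcodes were not simulated, and such a trial cannot check the profiles themselves. Beyond 1.5-fold means a log2 ratio with a pseudocount of 1 CPM. Shares have exact binomial intervals and CPM exact Poisson intervals; differences of shares and log2 ratios have normal approximations, all at 95%. The named genes are the 12 highest and 12 lowest mean log2 ratios to the mixture with 1 sign in both libraries, the 10 highest and 10 lowest between libraries, and members of the lists. Mitochondrial, ribosomal protein and sex-linked genes and gene models were not eligible; Gm42418 was named after its value was seen, as beyond 1.5-fold. Some genes that this rule takes are not reported here. The symbol Pclaf had no match in the files. For pairs, single barcodes had at least 1% endothelial or macrophage, 0.5% mural or 10% Sst UMIs at 1000 UMIs or more, pair barcodes at least 25% insulin and 0.1% of the other list (1.5% for Sst), and endothelial with macrophage 0.5% of each.

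Scrublet (scanpy 1.11.5) ran per library at an assumed rate of 8%, and the barcodes it marked were kept unless stated. TMM factors came from edgeR 4.0.16 (R 4.3.3), and the rest ran in Python 3.11.15 with pandas 2.3.3, scipy 1.17.1, matplotlib 3.10.9 and numpy 2.4.6.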

Additional observations from a re-analysis of the deposited data

How the results depend on the processing

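Each group is 1 library of pooled mice, so no value here separates genotype from library, and genes under 50 CPM rest on few UMIs. No paired analysis was possible because each group is 1 library. The difference in the share of barcodes with both hormones, 3.51 points, was 2.18 at 3% Gcg and 1.03 at 5% Gcg, and between 2.85 and 4.22 under the other 5 alternatives. The alpha share in BcBKO, 19.6%, was 19.72% from Gcg alone, 18.72% from insulin alone, 18.02% with an alpha profile from 20% Gcg, 19.35% at 5000 UMIs, 28.65% at 5% Gcg, 20.24% without genes off the mixture and 19.91% with a beta profile under 1.5% Sst. In flox/flox, 24.3% became 26.53% from insulin alone, 22.73% with 20% Gcg, 28.34% at 5% Gcg, 24.99% without barcodes marked by Scrublet and 24.6% with a beta profile under 1.5% Sst. The share was thus lower in BcBKO at the 1.5% limit and higher in BcBKO at 5% Gcg. Genes beyond 1.5-fold of the mixture in both libraries, 1 as reported, numbered 3 at 20 CPM (of 3324), 32 with no minimum (of 28688), 0 without barcodes marked by Scrublet (4 in each library), 2 at 5% Gcg and 3 without barcodes holding markers of other cells. Genes differing between the libraries, 10 as reported, numbered 36 at 20 CPM (of 3315), 1101 with no minimum and 5 without barcodes holding markers of other cells. Where values are given without barcodes marked by Scrublet, these were left out of the beta and alpha profiles too. Apoe, −0.91 over the mixture on average, turned to 0.36 without barcodes marked by Scrublet and was −1.89 at 5% Gcg and −1.80 without barcodes holding markers of other cells. Between libraries and without such barcodes, Ctrb1, Spp1, Clu and Dbi turned to −2.37, 0.10, 0.25 and 0.04, and Hbb-bs, 4.82 as reported, was 0.13; with the mean over barcodes Ctrb1 was 0.61 and Dbi −0.30. Over the mixture at 5% Gcg, Pdyn, Pfn1, Erh, Tonsl, C1qtnf4 and Atp5b had means of 0.05, 0.07, 0.11, 0.14, 0.11 and −0.10, and Mt1 −0.29, each over 1.5 times from the reported value; Ier2 was 0.15 without barcodes holding markers of other cells and C1qtnf4 0.11 with the mean over barcodes. Settings that leave out such barcodes, genes off the mixture or beta barcodes with Sst were chosen after seeing the data. Some settings also changed the number of barcodes or genes, and the cause of these moves was not tested.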
